A study of Mus musculus with 12 samples.

Results

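The genes described here are 4 members of the SoxB group of transcription factors, *Sox1*, *Sox2*, *Sox3* and *Sox21*, together with *Sox2ot*, a long non-coding RNA gene within whose introns *Sox2* lies. They were taken by symbol from the 2 RNA-seq count tables, and all 5 were found among the 24480 genes of each table. The tissue was the dorsolateral geniculate nucleus (dLGN), the thalamic relay for vision, dissected from newborn mice at postnatal day 0 (P0). *Sox2* mutants were Sox2flox/flox;Ror-alphaCre, with both *Sox2* alleles flanked by loxP sites. Their controls had no Cre and were Sox2flox/flox or Sox2flox/+. *Nr2f1* mutants were *Nr2f1* flox/flox;Ror-alphaCre. Their controls carry a label that names the Cre allele and also states that Cre is absent, and the study's methods describe them as littermates without Cre, with 1 or both *Nr2f1* alleles floxed. By the study's methods mutants carried Cre and controls did not, so within a line deletion and the Cre allele cannot be told apart. Each of the 4 groups had 3 libraries, and each library was a pool of 3 mice. Cre is expressed from the *Rora* locus, which is active in postmitotic cells of the sensory thalamus, so that cells of the dissected piece in which this locus is silent would keep the floxed gene. *Nr2f1* encodes a nuclear receptor of the COUP-TF family.

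Sox proteins bind DNA through a high-mobility-group (HMG) box and act with partner factors. *Sox1*, *Sox2* and *Sox3* form subgroup B1, whose proteins are so alike that they can stand in for each other in neural progenitors, where they keep cells undifferentiated. *Sox21* belongs to subgroup B2, whose proteins act mainly as repressors at the same kind of site and favour differentiation. *Sox2* is best known from neural stem cells and is also found in astroglia and in some neurons, among them thalamic projection neurons. *Sox2ot* is transcribed from the same strand as *Sox2* and is co-expressed with it in many tissues.

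The likeness of the 4 proteins is visible in their coding sequence. A stretch of 60 bases of the region that encodes the HMG box is shown. It was chosen as the stretch in which *Sox1*, *Sox3* and *Sox21* together were most like *Sox2*. Sequences are from the GRCm38 genome, on the coding strand from 5′ to 3′, and capitals mark bases that differ from *Sox2*.
Sox2: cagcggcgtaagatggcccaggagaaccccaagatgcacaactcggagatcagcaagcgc
Sox1: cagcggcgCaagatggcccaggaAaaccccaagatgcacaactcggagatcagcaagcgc
Sox3: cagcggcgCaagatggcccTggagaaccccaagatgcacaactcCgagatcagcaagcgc
Sox21: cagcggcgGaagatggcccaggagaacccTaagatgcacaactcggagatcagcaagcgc
Of the 60 bases, 58 in *Sox1*, 57 in *Sox3* and 58 in *Sox21* were identical to *Sox2*. The stretches lie at chr3:34650584-34650643 (plus strand) for *Sox2*, chr8:12396553-12396612 (plus strand) for *Sox1*, chrX:60892900-60892959 (minus strand) for *Sox3* and chr14:118235513-118235572 (minus strand) for *Sox21*, each in the single exon of its gene. The longest run of identical bases between any pair of the 5 transcripts was 45 bases, between *Sox1* and *Sox3*, which is shorter than a sequenced read of 75 bases. No window of 75 bases of *Sox2* or *Sox3* occurred in the transcripts of another annotated gene. In *Sox1* 12 of 4758 windows (0.252%) did, all of them in a small RNA gene. In *Sox2ot* the share was 11.4%, from small RNA genes that lie inside it. In *Sox21* it was 17.2%, all in *Gm4675*, a non-coding gene on the opposite strand that is not analysed here. The 12 *Sox21* values were also the only values among the 5 genes that were not whole numbers, which shows that reads had been divided in the estimate, and *Sox21* levels are therefore less certain than the others.

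*Sox2* occupies chr3:34649995-34652461 on the plus strand of GRCm38, inside *Sox2ot*, at chr3:34560381-34677993 on the same strand in RefSeq. The GENCODE exons of *Sox2ot* reach further, over chr3:34104270-34682619. In the GENCODE annotation *Sox2* overlapped 0 of 44 distinct exons of *Sox2ot*. The nearest *Sox2ot* exon upstream ended 11355 bases before it and the next began 716 bases after it. Counts of the spliced RNAs can thus be separated by position, whereas unspliced *Sox2ot* RNA that crosses *Sox2* would be counted with *Sox2*.

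**Figure D1:**
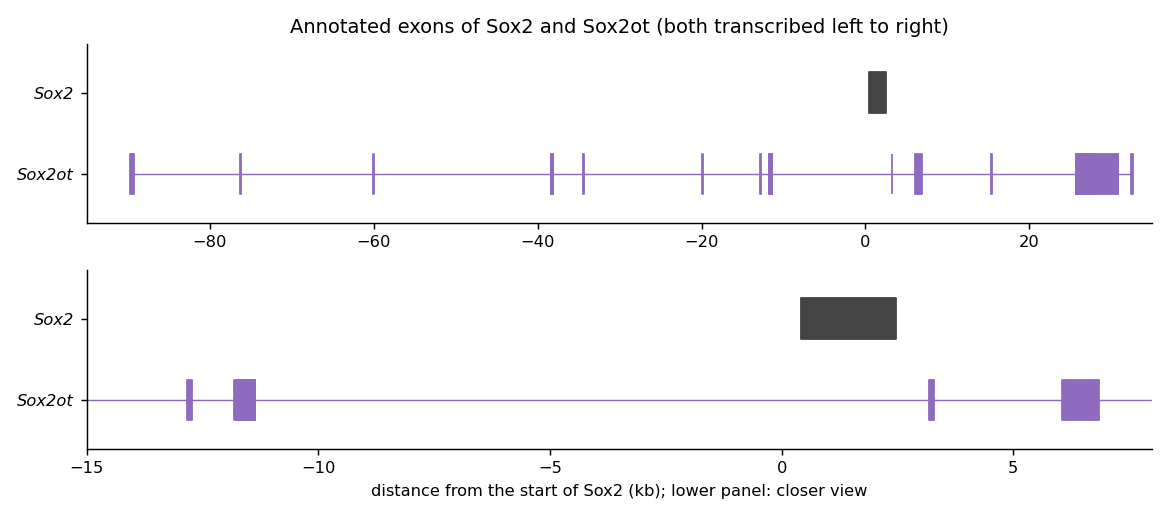
Annotated GENCODE exons (boxes) of *Sox2* and *Sox2ot* against the distance in kb from the RefSeq start of *Sox2*, over the RefSeq extent of *Sox2ot* (upper panel) and close to *Sox2* (lower panel). Both genes are transcribed from left to right, and no *Sox2ot* exon overlaps *Sox2*: the closest lie 11355 bases upstream and 716 bases downstream.

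Levels are given as CPM (the deposited expected counts scaled to a common library size after TMM normalization) with the SD over 3 libraries. Total counts lay between 39293470 and 50095336 per library, and the members had between 447 and 17201 counts each. A gene was called differentially expressed at a Benjamini-Hochberg adjusted p (FDR) below 0.01 in the quasi-likelihood test of edgeR, adjusted over all genes tested. With 3 pools per group, an exact permutation test of 1 gene cannot give a two-sided p below 0.1. Libraries are called by their column names, which show the group of a library but not which deposited sample it is. One library stood apart. Y-linked genes had a mean log2 CPM of -4.49 in *Nr2f1* mutant MUT_A and between 2.88 and 4.61 in the other 11 libraries, so the sexes were not balanced in the *Nr2f1* line. The dissected tissue carried thalamic markers, with *Tcf7l2* at 763 CPM and *Slc17a6* at 231 CPM in the *Sox2* controls. In the *Nr2f1* line the deleted gene itself fell by 1.57 (log2, SE 0.14, FDR 0.000348), from 354 to 119 CPM.

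In the *Sox2* line, *Sox2* RNA fell and 2 of the other 4 members, *Sox1* and *Sox2ot*, rose. *Sox3* and *Sox21* lay higher in every mutant library than in any control but missed the threshold. The fall of *Sox2*, the deleted gene, was set by the genotype. The 2 calls among the 4 other members stand beside 8.08% of all 15602 genes tested (3.9% called higher and 4.19% called lower in mutants). These 4 members also had mutant and control libraries that did not overlap, as had 37.9% of all genes tested.

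*Sox2*, the deleted gene, was at 361, 363 and 382 CPM in the 3 control libraries and at 116, 150.4 and 152 CPM in the 3 mutant libraries. MUT_1 had the lowest level, and the groups were far apart. On average 37.8% of the RNA remained in mutants, a log2 fold change of -1.40 (SE 0.10, 95% interval -1.63 to -1.17, FDR 4.83e-05). The fall was called under 15 of 15 alternative settings.

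*Sox1*, a B1 factor of neural progenitors, was at 23.7, 22.3 and 24.0 CPM in the control libraries and at 34.7, 35.9 and 29.6 CPM in the mutant libraries. All mutant libraries lay above all control libraries, with MUT_4 closest to them. The mutant mean was 143% of the control mean, a log2 fold change of 0.52 (SE 0.09, interval 0.31 to 0.72, FDR 0.00481). The call was lost when CTRL_1, CTRL_2, MUT_1 or MUT_3 was left out (FDR 0.0231, 0.0283, 0.0174 and 0.0154) and with the Y-linked level as a covariate (FDR 0.0144), while the fold change stayed between 0.46 and 0.60 in every setting.

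*Sox3*, the X-linked B1 gene, was at 13.8, 14.7 and 16.8 CPM in controls and at 20.7, 20.3 and 18.6 CPM in mutants. The groups did not overlap, and the gap between the highest control and the lowest mutant was narrow. The log2 fold change of 0.39 (SE 0.10, interval 0.16 to 0.62) had an FDR of 0.0261 and was not called. It was called with DESeq2 (FDR 0.00655) and when control CTRL_3, the highest of the controls, was left out (FDR 0.00823).

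*Sox21*, the B2 factor, was at 14.8, 19.0 and 18.5 CPM in controls and at 20.7, 25.3 and 23.2 CPM in mutants. Here too the lowest mutant library was above the highest control library. The log2 fold change was 0.40 (SE 0.12, interval 0.14 to 0.67), with an FDR of 0.0409, and it was called in 0 of 15 alternatives. *Sox14*, the other B2 gene, which marks interneurons of the visual thalamus and was not one of the members, had a log2 fold change of 0.44 (SE 0.10, FDR 0.0154).

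*Sox2ot*, the non-coding RNA around *Sox2*, was at 36.4, 30.8 and 34.6 CPM in controls and at 74.1, 73.8 and 70.9 CPM in mutants. The coefficient of variation was 8.31% in controls and 2.39% in mutants, and none came near a control. The level was 215% of the control level, a log2 fold change of 1.10 (SE 0.08, interval 0.93 to 1.28, FDR 3.89e-05), and it was called under 15 of 15 alternatives. Ordered by p, *Sox2ot* ranked 35 and the deleted gene *Sox2* ranked 40 among the 15602 genes.

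**Figure D2:**
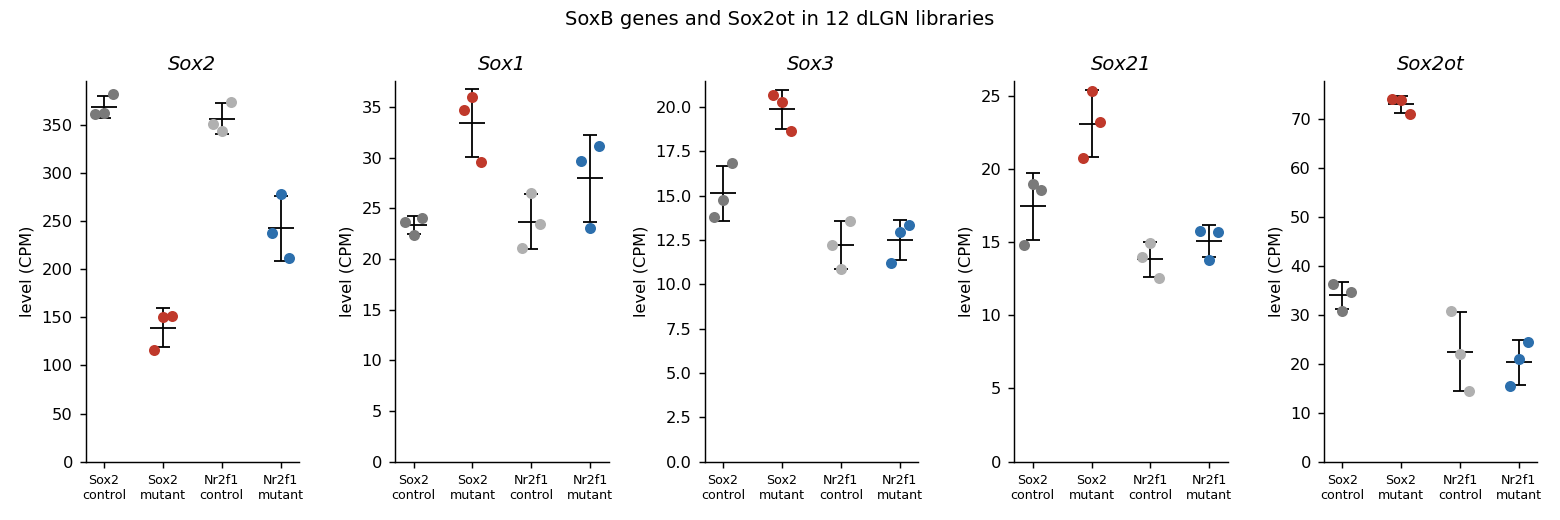
Level in CPM (vertical axes from 0, a scale for each gene) of the 5 members in the 12 libraries, with a point for each library and a bar for mean ± SD of the 3 libraries of each group. *Sox2* falls from 369 to 139 CPM in *Sox2* mutants while *Sox2ot* rises from 33.9 to 72.9 CPM, and the *Sox2ot* points of the *Nr2f1* line are spread between 14.5 and 30.7 CPM.

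In the *Nr2f1* line, *Sox2* fell and no other member was called by edgeR or DESeq2 or had an unadjusted p below 0.05. The 1 call among 5 members stands beside 2.54% of the 15600 genes tested (1.22% called higher and 1.32% called lower). *Sox2* was also the only member whose groups did not overlap, as was the case for 28.6% of all genes tested.

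*Sox2* was at 351, 343 and 374 CPM in the *Nr2f1* controls and at 238, 279 and 212 CPM in the *Nr2f1* mutants. MUT_B had the highest *Sox2* level of the mutants, and it also kept the most *Nr2f1*, at 151 CPM against 105 and 101 CPM in MUT_A and MUT_C. The mutant mean was 68.1% of the control mean, with a log2 fold change of -0.55 (SE 0.09, interval -0.75 to -0.35, FDR 0.00635). The direction held in 14 of 14 alternatives and the call in 8. It was lost when any library other than MUT_B was left out (FDR 0.0104 to 0.0409) and with the Y-linked level as a covariate (FDR 0.0607), where the fold change was -0.54.

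The other B1 genes and *Sox21* were within their spread. *Sox1* was at 21.1, 26.5 and 23.5 CPM in the controls and at 29.6, 23.0 and 31.2 CPM in the mutants, with a log2 fold change of 0.24 (interval -0.04 to 0.51, FDR 0.27). MUT_A and MUT_C lay above all controls and MUT_B among them. *Sox3* ranged from 10.9 to 13.5 CPM in controls and from 11.2 to 13.3 CPM in mutants (log2 fold change 0.04, interval -0.22 to 0.29, FDR 0.878). *Sox21* ranged from 12.6 to 14.9 CPM and from 13.8 to 15.7 CPM (0.12, interval -0.10 to 0.34, FDR 0.485).

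*Sox2ot* varied widely within both groups of the *Nr2f1* line. It was at 30.7, 22.1 and 14.5 CPM in controls and at 15.4, 20.9 and 24.5 CPM in mutants. The groups overlapped throughout, and each held a library at about the same low level. The log2 fold change of -0.14 had an SE of 0.24 and an interval from -0.69 to 0.41 (FDR 0.771), and its sign turned when CTRL_B or MUT_A was left out (0.15 and 0.02) and with the Y-linked covariate (0.02). This SE was larger than that of 99.0% of the 4697 genes whose control level was within a factor of 2 of *Sox2ot*, whereas in the *Sox2* line the same share was 25.7%.

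**Figure D3:**
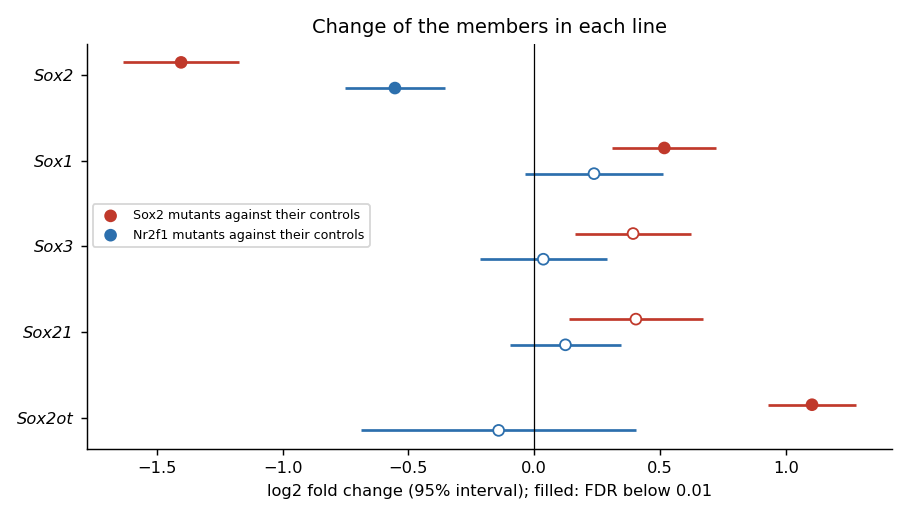
Log2 fold change of mutants against the controls of their own line, with the 95% interval from the edgeR fit, for the *Sox2* line (red) and the *Nr2f1* line (blue); filled points have an FDR below 0.01. *Sox2* lies below 0 in both lines (-1.40 and -0.55), whereas *Sox2ot* lies at 1.10 in the *Sox2* line and its interval runs from -0.69 to 0.41 in the *Nr2f1* line.

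The difference between the lines was tested as the interaction of line and genotype over the 12 libraries, which called 1.44% of 15989 genes. *Sox2* fell further in *Sox2* mutants, by a log2 difference of -0.84 (SE 0.15, interval -1.16 to -0.52, FDR 0.00603), a call kept in 6 of 15 alternatives. With 1 library left out it held only without *Sox2* mutant MUT_1 or MUT_3 or *Nr2f1* mutant MUT_C, and the FDR without any of the other 9 libraries was 0.0105 to 0.0252. The difference for *Sox2ot* was 1.25 (SE 0.29, interval 0.63 to 1.88) and missed the threshold at an FDR of 0.0299. It was called when *Nr2f1* control CTRL_E, the control with the lowest *Sox2ot*, was left out (1.49, FDR 0.0029). For *Sox1*, *Sox3* and *Sox21* the differences were 0.29, 0.36 and 0.29, with intervals of -0.07 to 0.64, 0.03 to 0.69 and -0.06 to 0.63 and FDR of 0.447, 0.26 and 0.43. A larger rise of these 3 genes in one line was therefore not shown.

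The same fit compared the control groups, between which 0.469% of genes were called. No member was among them. *Sox2* and *Sox1* were close, with log2 differences of 0.02 and -0.05 (*Sox2* line minus *Nr2f1* line). *Sox2ot*, *Sox3* and *Sox21* were higher in the *Sox2* controls by 0.57, 0.28 and 0.31, with FDR of 0.16, 0.183 and 0.172. Each line came with its own count table, so differences between lines and between tables cannot be told apart.

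To compare levels between genes, CPM was divided by transcript length in kb. In the *Sox2* controls *Sox2* was at 149 ± 4.76 CPM per kb, followed by *Sox2ot* at 11.4 ± 0.95, *Sox3* at 7.32 ± 0.75, *Sox1* at 5.78 ± 0.22 and *Sox21* at 4.59 ± 0.60 (SD, n = 3). No neighbours in this order overlapped in their libraries, and the order was the same in the *Sox2* mutants. In the *Nr2f1* controls *Sox2* was at 144 ± 6.49 CPM per kb and *Sox21* lowest at 3.64 ± 0.31, while *Sox2ot* (7.55 ± 2.72), *Sox3* (5.91 ± 0.65) and *Sox1* (5.87 ± 0.67) overlapped and had no clear order. The length of *Sox2ot* is that of a single transcript of 2970 bases, and its level per kb depends on that choice.

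*Sox2* thus made up nearly all SoxB1 RNA of the controls. The summed level of *Sox1*, *Sox2* and *Sox3* was 163 ± 5.62 CPM per kb in *Sox2* controls and 74.4 ± 7.62 in *Sox2* mutants, or 45.8% of the control level. The share of *Sox2* in that sum went from 91.9% ± 0.25 to 75.7% ± 3.73. *Sox1* and *Sox3* together were 4.78 CPM per kb higher in the mutants (13.1 ± 0.87 against 17.9 ± 1.34), beside a loss of 92.9 CPM per kb for *Sox2*. The sum in the *Nr2f1* line was 156 ± 6.93 in controls and 111 ± 12.6 in mutants, 71.3% of the control level, and the share of *Sox2* was 92.5% ± 0.29 and 88.2% ± 2.29. Neither pair of groups overlapped for the sum or the share, with the exact permutation p at its lower limit of 0.1 for each. Because *Sox2* was most of the sum, sum and share largely repeat the fall of *Sox2* and are no separate result. In the *Sox2* line that fall was set by the genotype. *Sox1* plus *Sox3* overlapped in the *Nr2f1* line (11.8 ± 0.62 against 12.97 ± 1.11 CPM per kb, exact permutation p = 0.2).

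The balance between *Sox2ot* and *Sox2* was set beside this as the number of *Sox2ot* counts per 100 *Sox2* counts. It was 10.1, 8.50 and 9.06 in the *Sox2* controls and 63.8, 49.1 and 46.8 in the *Sox2* mutants. The mean rose from 9.21 ± 0.79 to 53.2 ± 9.23, with both genes contributing (exact permutation p = 0.1, the lowest possible). *Sox2*, the divisor, is the deleted gene in this line, so its fall alone would raise the ratio. The ratio in the *Nr2f1* line was 8.74, 6.43 and 3.88 in controls and 6.50, 7.49 and 11.6 in mutants, and the groups overlapped (exact permutation p = 0.4).

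**Figure D4:**
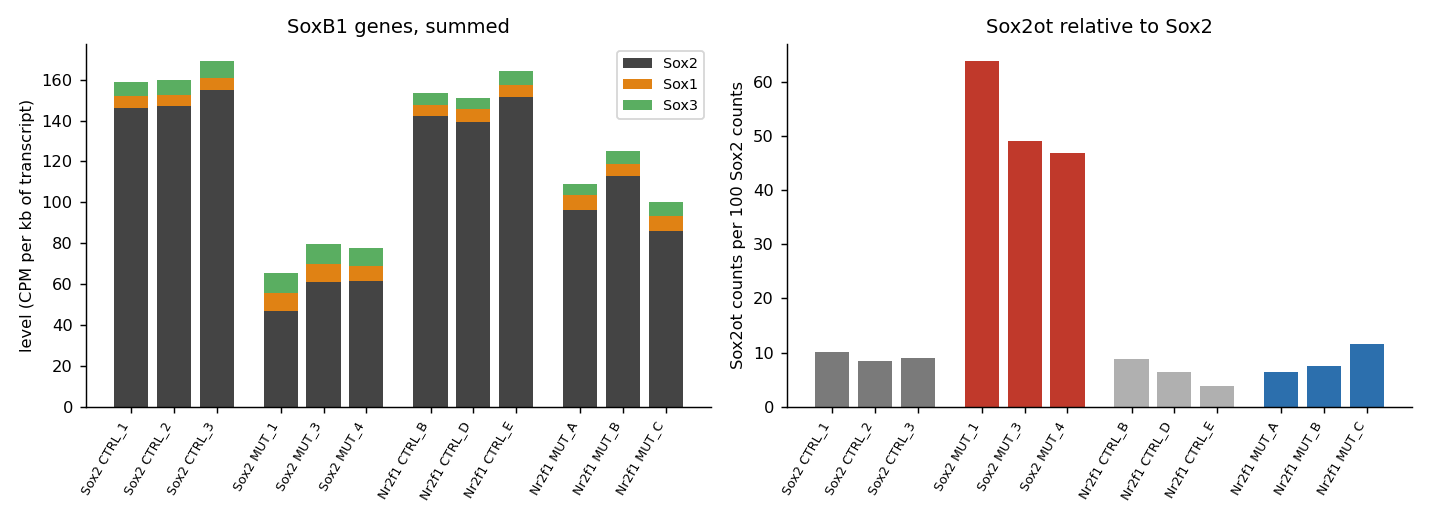
Left, summed level of *Sox2*, *Sox1* and *Sox3* in CPM per kb of transcript for each library, stacked by gene; right, *Sox2ot* counts per 100 *Sox2* counts in the same libraries. The sum averages 163 in *Sox2* controls and 74.4 in *Sox2* mutants, and the ratio lies between 46.8 and 63.8 in the 3 *Sox2* mutant libraries and at or below 11.6 in the other 9.

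*Sox1* also lies within a non-coding gene, listed as *Gm5607* in the count tables and as *Sox1ot* in RefSeq (chr8:12385771-12436732, plus strand). *Sox1* itself is at chr8:12395519-12399555 on the same strand and overlaps 0 of 11 *Sox1ot* exons. This RNA was at 7.55, 6.63 and 5.85 CPM in *Sox2* controls and at 11.7, 11.3 and 10.6 CPM in *Sox2* mutants. The groups were apart, with a log2 fold change of 0.75 (SE 0.12, FDR 0.00353). Its level in the *Nr2f1* line was 6.33, 6.62 and 7.44 CPM in controls and 10.9, 7.84 and 9.16 CPM in mutants, also without overlap, and was not called (0.45, SE 0.14, FDR 0.0792). The difference between the lines was 0.30 (interval -0.10 to 0.70, FDR 0.486).

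*Gm5607* was the gene called higher among the 39 tested genes within 1 Mb of the members in the *Sox2* line. Over all genes tested in that line, 3.9% were called higher. *Hs6st3*, a heparan sulfate sulfotransferase 900.0 kb from *Sox21*, fell by 1.93 (log2, FDR 0.000103). Of 38 genes tested there in the *Nr2f1* line 1 was called, again *Hs6st3*, which fell by 1.21 (FDR 0.00165). That count stands beside 2.54% called over all genes tested in the *Nr2f1* line. Around *Sox2* and *Sox2ot* 4 genes were tested, *Ttc14*, *Ccdc39*, *Fxr1* and *Dnajc19*, and edgeR called none in either line. In the *Sox2* line none had an unadjusted p below 0.05 and DESeq2 called 0, and in the *Nr2f1* line 1 had an unadjusted p below 0.05, *Ccdc39*, and DESeq2 called 1. *Fxr1*, an RNA-binding protein gene 580 kb from *Sox2* and 490 kb from the RefSeq extent of *Sox2ot*, had log2 fold changes of -0.001 and -0.03. The GENCODE exons of *Sox2ot* begin closer to *Fxr1* than its RefSeq extent does.

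The promoters of *Sox2*, which fell in both lines, and *Sox1*, which was called higher in *Sox2* mutants, are given as 250 bases before and 50 after the RefSeq start (GRCm38.p6, 5′ to 3′ on the strand of the gene). Capitals mark matches, on either strand, to ACAATG and ACAAAG (Sox factors), AGGTCA (nuclear receptor sites) and ATGCAAAT (POU factors).
Sox2: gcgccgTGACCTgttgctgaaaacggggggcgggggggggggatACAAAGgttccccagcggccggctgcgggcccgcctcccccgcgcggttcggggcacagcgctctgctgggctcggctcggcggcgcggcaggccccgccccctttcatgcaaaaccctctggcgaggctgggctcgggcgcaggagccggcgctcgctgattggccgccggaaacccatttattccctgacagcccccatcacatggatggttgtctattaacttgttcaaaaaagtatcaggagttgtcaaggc
Sox1: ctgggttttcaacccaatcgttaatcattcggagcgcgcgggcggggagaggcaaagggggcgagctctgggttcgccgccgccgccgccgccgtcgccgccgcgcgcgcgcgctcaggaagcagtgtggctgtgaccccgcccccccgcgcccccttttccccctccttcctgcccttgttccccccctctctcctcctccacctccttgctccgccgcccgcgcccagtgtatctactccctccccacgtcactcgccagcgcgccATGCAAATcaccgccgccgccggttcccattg
The *Sox2* window (chr3:34649745-34650044, plus strand) held AGGTCA on the minus strand and ACAAAG on the plus strand, with first bases at positions -244 and -206 relative to the start. The *Sox1* window (chr8:12395269-12395568, plus strand) held ATGCAAAT 18 bases after the start. Of 32851 promoter windows of this length, 16.3% held AGGTCA, 18.7% ACAAAG, 12.6% ACAATG and 1.74% ATGCAAAT, so the first 2 matches are common. *Sox21* matched none of the 4, and no window was available for *Sox3* or *Sox2ot*. Both windows shown were rich in G and C (66.3% for *Sox2* and 70.7% for *Sox1*) against a median of 52.7%. Of all windows, 84.4% had a lower share than *Sox2* and 91.4% a lower share than *Sox1*.

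Among 14 tested Sox genes outside the members, 0 were called higher and 4 lower in *Sox2* mutants, with a median log2 fold change of 0.44 against 0.0005 over all genes tested. In the higher direction 9 of the 14 had an unadjusted p below 0.05, and DESeq2 called 4. The 4 genes called lower by edgeR are *Sox4* and *Sox11* (SoxC genes of differentiating neurons) at -0.86 and -0.51, and *Sox5* and *Sox13* (SoxD genes) at -1.41 and -1.45. The glial SoxE gene *Sox9* was at 51.2 CPM in controls and 77.8 CPM in mutants (0.60, FDR 0.0100069) and lay just outside the threshold. In *Nr2f1* mutants 1 was higher, the endothelial gene *Sox18* at 0.61 (FDR 0.00759), and 1 lower, *Sox13* at -0.73 (FDR 0.000111), and the median was 0.12 against 0.01 over all genes. At an unadjusted p below 0.05 there were 5 higher and 4 lower, and DESeq2 called 1 higher and 4 lower.

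Genes known as partners or progenitor targets of SoxB factors were examined as a list of 17. In *Sox2* mutants 6 rose and 2 fell, with a median log2 fold change of 0.47. At an unadjusted p below 0.05 edgeR had 12 higher and 3 lower, and DESeq2 called 9 higher and 2 lower. The 6 were *Pou3f2* (Brn2, a POU partner of *Sox2*) at 0.71, *Pax6* at 0.62, *Notch1* at 0.47, the radial glial lipid-binding gene *Fabp7* at 0.60, *Egfr* at 0.46 and the astrocyte filament gene *Gfap* at 1.28. Of these, *Fabp7*, *Pax6* and *Gfap* are also on the cell type lists below and are counted again there. The 2 that fell were *Pou2f1* (Oct1) at -0.67 and the chromatin remodeller *Chd7*, a SOX2 partner, at -0.59. In *Nr2f1* mutants 1 of the 17 was called, *Pou3f3* at 0.53 (FDR 0.00513), with a median of 0.08. At an unadjusted p below 0.05 edgeR had 4 higher and 1 lower there, and DESeq2 called 1 higher and 1 lower.

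Markers of other cells in the dissected piece moved beside the members in the *Sox2* line. In bulk tissue fewer cells of a type and less RNA per cell cannot be told apart. Of 10 astrocyte markers 7 were called higher and none lower, with *Gfap* at 1.28, *Aqp4* at 0.77 and *Gja1* at 0.77, and their summed level ranged from 1313 to 1475 CPM in controls and from 2002 to 2231 CPM in mutants. Of 10 radial glial and progenitor markers 4 were higher (*Fabp7*, *Pax6*, *Ptprz1* and *Tnc*), with sums of 2732 to 3300 and 3783 to 4545 CPM. Of 9 microglial markers 8 were higher, among them *P2ry12* at 1.45 and *Cx3cr1* at 1.12, with sums of 134 to 148 and 277 to 321 CPM. Of 10 markers of thalamic glutamatergic neurons 6 were lower and 1, *Gbx2*, was higher, with *Rora* at -1.96, *Slc18a2* at -1.71 and *Slc17a6* at -0.96, and sums of 2339 to 2823 and 1892 to 1951 CPM. The log2 fold changes of *Sox1*, *Sox3* and *Sox21* (0.39 to 0.52) lay beside list medians of 0.41 for radial glia and 0.70 for astrocytes. Medians of 0.44 for thalamic interneurons derived from the midbrain, 0.39 for endothelial cells and pericytes and 0.36 for dividing cells were also near. Nearness to a median was thus not particular to glia. The log2 fold change of *Sox2ot* (1.10) was above all of these and below the microglial median of 1.26. The lists of pallial and hippocampal neurons, prethalamus and GABAergic neurons had medians of 1.10, 1.17 and 1.19. The part of cell makeup in the members' changes was not tested.

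The other lists of the *Sox2* line had fewer calls. Among 8 genes of dividing cells, 8 of GABAergic neurons, 7 of endothelial cells and pericytes and 5 of meningeal fibroblasts edgeR called none, with medians of 0.36, 1.19, 0.39 and 0.71. At an unadjusted p below 0.05 they had 6, 8, 5 and 2 genes, all higher in mutants, and DESeq2 called 1, 4, 0 and 0. At an FDR below 0.01 edgeR called 1 of 5 tested markers of thalamic interneurons derived from the midbrain (*Otx2*, higher), 2 of 9 prethalamic markers (*Pax6* and *Nkx2-2*, higher) and 2 of 8 markers of neurons of any kind (*Syt1* and *Elavl4*, lower). DESeq2 called 4 of the interneuron and 4 of the prethalamic markers higher, and 5 of 5 and 8 of 9 were higher at an unadjusted p below 0.05, while for neurons of any kind both counts were 2, lower. In the oligodendrocyte lineage *Mbp* was higher and *Mag* lower of 8, and of 6 pallial and hippocampal markers *Bcl11b* was higher and *Prox1* lower.

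In the *Nr2f1* line, 1 of 10 astrocyte markers was called higher (*Aqp4*, 0.38), 0 of 10 radial glial markers and 0 of 9 microglial markers, with medians of 0.28, 0.10 and 0.40. At an unadjusted p below 0.05 there were 5, 1 and 5, all higher, and DESeq2 called 3, 0 and 3. The summed astrocyte level ranged from 1068 to 1128 CPM in controls and from 1247 to 1380 CPM in mutants, and the microglial sum from 109 to 125 and from 135 to 166 CPM. Of the 10 thalamic glutamatergic markers 3 were higher (*Prox1*, *Lhx2* and *Cacna1g*) and 1 lower (*Lef1*). *Rora*, from whose locus Cre is expressed, had a log2 fold change of -0.25 (FDR 0.204), against -1.96 in *Sox2* mutants. Among the 9 remaining lists there were 3 calls, *Mbp* higher, *Mag* lower and *Prox1* higher, the last of which is also on the thalamic list. In the 7 of them without a call, those of dividing cells, GABAergic neurons, midbrain-derived interneurons, prethalamus, neurons of any kind, endothelial cells and meningeal fibroblasts, 0, 4, 4, 0, 3, 4 and 5 genes had an unadjusted p below 0.05, and DESeq2 called 0, 0, 1, 0, 1, 2 and 0. The medians of these lists lay between -0.07 and 0.98.

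**Figure D5:**
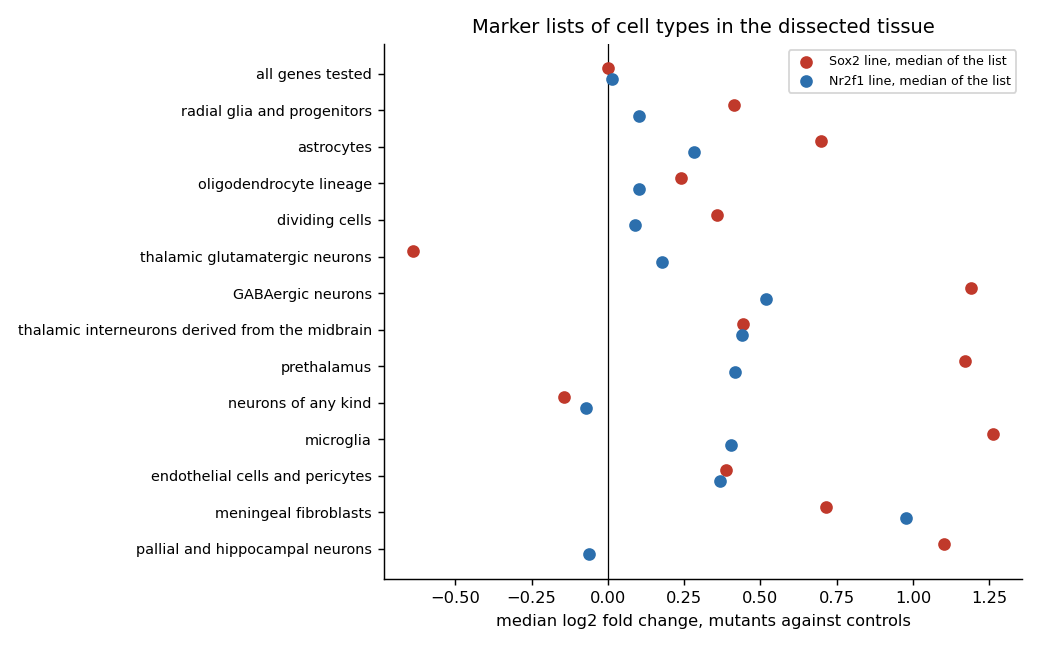
Median log2 fold change of each marker list, mutants against controls, in the *Sox2* line (red) and the *Nr2f1* line (blue), with the median of all genes tested in the top row. In the *Sox2* line the median is 1.26 for microglia, 0.70 for astrocytes and -0.64 for thalamic glutamatergic neurons; in the *Nr2f1* line these 3 medians are 0.40, 0.28 and 0.18.

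The genes whose levels followed each member most closely were found by Pearson's r of log2 CPM over the 12 libraries, among 13950 genes, as a description of libraries that share 4 groups. For *Sox2* they were *Sgk1*, a serum- and glucocorticoid-regulated kinase gene, *Sac3d1* and *Nsmf* (r = 0.985, 0.984 and 0.982). For *Sox1* they were *Fat1*, an atypical cadherin gene, *Phldb2* and the semaphorin receptor gene *Nrp2* (0.952, 0.948 and 0.937). For *Sox3* they were *Bin2*, *Ndufb4* and *Cst3* (0.973, 0.966 and 0.962), for *Sox21* *Spcs3*, the tetraspanin gene *Cd9* and *Slc27a1* (0.972, 0.966 and 0.966), and for *Sox2ot* *Rap1b*, *Crip2* and *Rassf4* (0.970, 0.966 and 0.959). No member was among the 3 genes closest to another.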

How the data were processed

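RNA-seq was carried out by the authors on pooled dLGN tissue of newborn mice. According to the study's methods, paired reads were aligned with STAR to the RefSeq mouse transcriptome and expression was estimated with RSEM; the labels also name mm10, and the strand setting is not given in the sources used here. The values deposited by the authors are expected counts per gene, 1 table for each line, without normalization. They were rounded before testing (7.77% were not whole). Columns were assigned to groups by their names.

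Genes were filtered with filterByExpr (at least 10 counts, and 15 in total) and TMM-normalized, and each line was then tested on its own by quasi-likelihood with edgeR 4.0.16 in R 4.3.3. DEG had an FDR below 0.01. Intervals use the SE and degrees of freedom of that fit. The interaction of line and genotype and the control groups were fitted over 12 libraries. Exact permutation tests were two-sided. P-values measure the spread between pools. The genes named are the members, listed genes, genes within 1 Mb that were called or lie around *Sox2* and *Sox2ot*, and the 3 closest in level to each member (mean CPM of at least 1). A result that meets this rule is not reported here. Members and the 15 gene lists were chosen with earlier results of these data known. Alternatives were other filters, normalizations and tests, including DESeq2 1.42.0, a Y-linked covariate, a replicate block and leaving out each library. The tests were checked on simulated counts. Positions and sequences are from RefSeq and GENCODE on GRCm38.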

Additional observations from a re-analysis of the deposited data

Results flagged for a closer look

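The change of *Sox2* differed between the lines by the test of the interaction of line and genotype, which is what brought it here. The log2 fold change of *Sox2* in its own mutants, less that in *Nr2f1* mutants, was -0.84 (edgeR quasi-likelihood test, SE 0.15, FDR 0.00603). In both lines *Sox2* was lower in 3 of 3 mutant libraries than in any control of the same line. *Sox2* is the deleted gene in one line and an intact gene in the other.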

How the results depend on the processing

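In the *Sox2* line *Sox2* and *Sox2ot* kept their calls under all 15 alternatives (log2 fold changes of -1.49 to -1.28 and 1.04 to 1.15), and *Sox21* was called in none. *Sox1* was no longer called with the Y-linked covariate (0.52), and over the fits that left out 1 library it lay between 0.46 and 0.60. *Sox3* was called with DESeq2 (0.39) and lay between 0.33 and 0.49 with 1 library left out. In the *Nr2f1* line *Sox2* was no longer called with the Y-linked covariate (-0.54) and lay between -0.67 and -0.47 with 1 library left out. *Sox2ot* changed sign with that covariate (0.0159) and lay between -0.38 and 0.15, and *Sox3* between -0.043 and 0.118, with 1 library left out; both changed sign there and the cause was not tested. For the difference between the lines, *Sox2ot* was called with the likelihood ratio test (1.25) and lay between 0.97 and 1.49, and *Sox2* between -0.92 and -0.72, with 1 library left out.

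Counts of DEG moved more than the members did. The 1261 DEG of the *Sox2* line became 2452 with DESeq2, 2351 with the likelihood ratio test, 2075 in a fit over 12 libraries and 3095 at an FDR below 0.05, and 494 to 2161 with 1 library left out (494 without CTRL_2, 2161 without CTRL_3). The 396 of the *Nr2f1* line became 1108, 1089 and 1154 with DESeq2, the likelihood ratio test and an FDR below 0.05, 84 with the Y-linked covariate, and 133 to 868 with 1 library left out (133 without MUT_A, 868 without MUT_B). The 231 genes that differed between the lines became 496 with the likelihood ratio test and 133 to 308 with 1 library left out. Within 200 kb of the members, 1 gene was called in the *Sox2* line and 0 of 3 tested in the *Nr2f1* line.

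With the replicate block in the *Sox2* line, *Sox2* changed by -1.49, *Sox1* by 0.57 and *Sox2ot* by 1.06, each still called, and DEG numbered 1611. CTRL_2 and MUT_4 share their number with no library of the other group. The changes in this fit therefore rest on CTRL_1, CTRL_3, MUT_1 and MUT_3 alone. It is counted among the alternatives of the *Sox2* line with that limit. The shared numbers did not qualify as pairing: 2 pairs share a number, with correlations of deviations of 0.18 and 0.16, and other pairs lay between -0.28 and 0.15. No paired analysis was possible because the groups share only the letter B in the *Nr2f1* line.

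Pools of 3 mice, 3 per group, limit what can be said of the small changes of *Sox1*, *Sox3* and *Sox21*. So do the Y-linked levels, which differed most in *Nr2f1* mutant MUT_A. In the *Sox2* line they ranged from 2.90 in CTRL_1 to 4.61 in MUT_1 (mean log2 CPM). *Sox1*, *Sox3* and *Sox21* each had at least 447 counts in every library.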

Other observations

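*Sox2ot* and *Sox2* did not move in parallel among libraries of the same group. In the *Nr2f1* controls *Sox2ot* fell from 30.7 CPM in CTRL_B to 14.5 CPM in CTRL_E while *Sox2* was at 351 and 374 CPM in the same libraries. The coefficient of variation over the 3 *Nr2f1* controls was 36.0% for *Sox2ot* and 4.50% for *Sox2*, and over the 3 *Nr2f1* mutants it was 22.5% and 13.9%. In the *Sox2* mutants the order was the other way round, with 2.39% for *Sox2ot* and 14.5% for *Sox2*. These are values of 3 libraries each, and the difference in spread was not tested.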
